A study of Rattus norvegicus with 5 samples.

Results

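The cytosolic ribosomal protein genes encode the proteins of the ribosome that works in the cytoplasm. They were chosen by symbol alone, as every Rpl or Rps symbol built on a number, together with Rpsa and Rplp0, Rplp1 and Rplp2, with a value above 0 in at least 1 library. The rule found 83 genes among the 13397 detected of 17048 rows, 50 of the large subunit and 33 of the small subunit. Where a symbol had several rows, the row with the highest mean was used. The rule looks at no difference between libraries. Fau and Gnb2l1, whose products also sit on the ribosome, carry other symbols and are described separately below.

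A ribosome joins a large and a small subunit, each made of ribosomal RNA and many small basic proteins, and the cell needs these proteins in matched amounts. Most of their messenger RNAs begin with a C followed by a run of pyrimidines, the 5′ terminal oligopyrimidine (TOP) tract, through which the kinase mTOR and the RNA-binding protein LARP1 set how much of the pool is translated and how well it is kept. Ribosome production is costly in energy, and low oxygen is known to restrain mTOR. A few members exist as paralogs, a second gene for nearly the same protein, of which some are used mainly in testis or striated muscle.

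RNA was measured by sequencing in cultured vascular smooth muscle cells of the rat, which give the vessel wall its tone. The study has 5 libraries, 1 per condition: an untreated control, hypoxia for 24 h, and the same hypoxia in cells first given In-Cl at 0.1 µM, DPN at 0.1 µM or the hormone estradiol (E2) at 10 nM. DPN (diarylpropionitrile) prefers estrogen receptor beta, and the series title names In-Cl as an indazole. The labels give no rat strain, age, sex, vessel of origin or oxygen level and name no vehicle. With 1 library per condition there was no replicate check and no test was possible, so every statement compares libraries and not conditions.

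The deposited values are log2 of a library-adjusted count plus 1, and a difference is always between such log2 values. The adjusted counts sum to between 20663687 and 22837695 per library, about 20200000 to 24400000 reads. Where reads are given they are approximate, recovered from the spacing of the low values. A 95% counting interval is the exact Clopper-Pearson interval from those reads. It covers counting error only, and since no molecular identifiers were used, repeated reads of 1 molecule cannot be told from separate molecules. The 8 smooth muscle markers were all detected (202022 to 274712 reads in all), and markers of leukocytes (198 to 273), endothelium (306 to 449, with 3 of 5 markers detected), epithelium (262 to 547), neural cells (64 to 195), adipocytes (1 to 4) and erythroid cells (0 to 4) were low. All 8 genes of a hypoxia check list were higher in the hypoxia library, from Vegfa at 1.53 to Ndufa4l2 at 8.99.

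The start of the gene is where the TOP tract lies, so the first bases of 3 paralog pairs are shown, with those of Rps19 and Rps28 from the ends of the rankings and of the stalk protein Rplp1 as a further start with the tract. Each line holds 12 bases before and 18 bases from the transcription start annotated by RefSeq on build GRCr8, 5′ to 3′ on the gene's strand. Capitals mark a C followed by at least 4 bases that are each C or T, beginning exactly at that start.
Rpl22: gtgcgcccccctCCCTTTCTgcctcctctg
Rpl22l1: ccgtggatatccggttccgagttgcgcagc
Rps27: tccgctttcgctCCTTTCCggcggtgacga
Rps27l: tattcatttgtcattatttgtggtgtccag
Rpl36a: cctataaacttccgttgctgctctagcctc
Rpl36al: gacttccgctccatccgtccctttcctgtt
Rplp1: ggcgcatgtgatCCTTTCCTCagctgccgc
Rps19: gacttgtgcgcccgggaaaccccgtcgttc
Rps28: tcccctgctcacgtgactcctctccgctag

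The windows are chr5:168117949-168117978 (plus strand) for Rpl22 and chr2:113683184-113683213 (plus) for Rpl22l1. Rps27 is at chr2:177964589-177964618 (minus) and Rps27l at chr8:76443646-76443675 (plus). Rpl36a is at chrX:102059437-102059466 (plus) and Rpl36al, listed as Rpl36al1, at chr6:93392241-93392270 (minus). Rplp1 is at chr8:71290855-71290884 (minus), Rps19 at chr1:89608676-89608705 (plus) and Rps28 at chr7:15311316-15311345 (minus). Rpl22 and Rps27 begin with such a tract, and the windows of their paralogs Rpl22l1 and Rps27l hold none at the annotated start.

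RefSeq promoter entries were matched for 68 of the 83 members, 2 of them by synonym. The tract began at the annotated start in 24 of the 68 (35.3%), against 2.63% of 33469 promoter entries, and within 5 bases of it in 40 (58.8%), against 17.0%. An annotated start can lie a few bases from the start used in these cells. No match says only that no such tract begins at that start, or within 5 bases of it. A tract can still lie elsewhere in the window, as in that of Rpl36al. The 24 members with the tract had a median difference between hypoxia and control of 0.21, and the 41 abundant members without it had 0.19. With In-Cl against hypoxia both medians were -0.25. The core of the hypoxia response element, ACGTG, was searched on both strands over 250 bases before to 50 bases after the start. It was present in 21 of the 68 (30.9%), against 19.3% of all promoters, and the E-box CACGTG, which overlaps it, in 5 (7.35%), against 6.42%. The 21 members with ACGTG had a median between hypoxia and control of 0.22 and the 44 abundant members without it 0.21.

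Ribosomal protein genes were among the most abundant in these cells. Of the 83 members, 80 were among the 6699 rows in the upper 50% of detected rows by mean (called abundant below), and 77 of these lay in the top 10% of abundant rows. The other 3 were the paralogs Rpl39l, Rpl3l and Rps4y2. The 83 members together took 10.5% of all reads in control cells and, under hypoxia, 10.9% alone, 9.73% after In-Cl, 10.8% after DPN and 10.6% after E2. As deposited, their share was highest in hypoxia and lowest with In-Cl, while after quantile normalization it was 10.9% in the control and 10.7% in hypoxia, with In-Cl still lowest at 9.92%. The large subunit supplied between 58.8% and 59.1% of the members' reads in every library, so the balance of the subunits moved by less than 1 percentage point.

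As deposited, the 80 abundant members shared a pattern across the 5 libraries, which depends on the scaling. In hypoxia against control, 39 of the 80 lay below 0 after quantile normalization and 25 with libraries brought to the same sum. Shares of all abundant rows were counted on deposited values only, so counts under other scalings have none beside them. The ranks that follow are those of the deposited values. The hypoxia library held the highest value for 72 of the 80 members, against 14.5% of all abundant rows. The lowest value was in the In-Cl library for 57 (29.2% of all abundant rows) and in the control for the other 23 (30.7%). The DPN library was highest for 5 members (9.33% of all): Rpl21, Rpl22, Rpl23, Rps27a and Rps6, named after their values were seen. The control was highest for Rpl22l1, Rps27l and Rps9 only (41.9% of all).

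**Figure D1:**
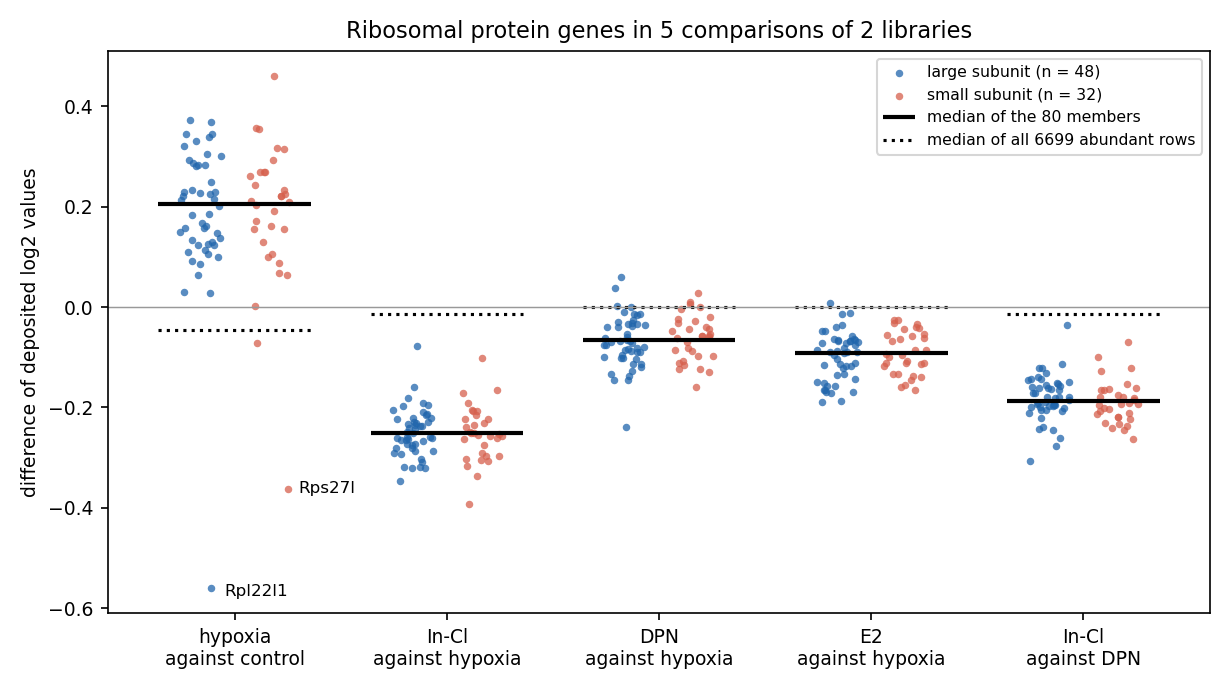
Each point is 1 of the 80 abundant ribosomal protein genes in 1 comparison of 2 libraries, large subunit in blue and small subunit in red. The y axis is the difference of deposited log2 values, solid lines are the members' medians and dotted lines the medians of all 6699 abundant rows. The members lie mostly above 0 in hypoxia against control and all lie below 0 in In-Cl against hypoxia, with both subunits over the same range and Rpl22l1 and Rps27l far below the others in the first comparison.

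Hypoxia against control asks what 24 h of low oxygen does to the supply of these messages. Over all 83 members the median difference was 0.20, a 1.15-fold higher level in hypoxia. It was 0.19 for the large subunit (the median of 50) and 0.21 for the small subunit (33). Of the 80 abundant members, 56 were at least 1.1-fold higher, against 27.0% of all abundant rows, and 23 were at least 1.2-fold higher, against 15.7%. Only Rpl22l1 and Rps27l were at least 1.1-fold lower, against 36.8%. The counting interval lay above 0 for 75 members, against 28.7%. None was 1.5-fold higher (4.39% of all) or 1.5-fold lower (3.39%).

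The size of this difference rests on how the libraries are scaled to each other. The median of the 80 members was 0.21 as deposited, 0.062 with libraries brought to the same sum and 0.0016 after quantile normalization. The number above and below 0 was 77 and 3 as deposited (43.6% and 56.2% of all abundant rows), 55 and 25 with the same sum, and 40 and 39 after quantile normalization. The 56 members at least 1.1-fold higher were 20 with the same sum and 9 after quantile normalization. The same-sum scaling also moved the median of all abundant rows, from -0.045 to -0.19. Set against that median, the members stood 0.25 higher as deposited and with the same sum, and 0.027 higher after quantile normalization. The 500 most abundant rows that are not members had a median of 0.076 as deposited, 0.13 below that of the members.

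**Figure D2:**
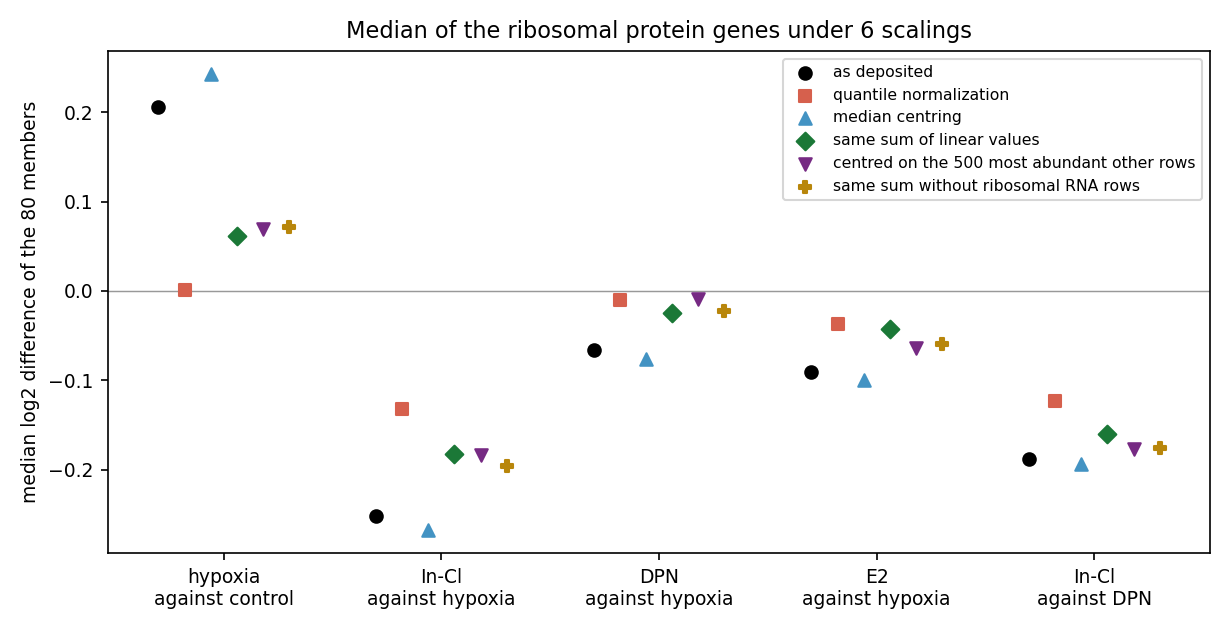
The y axis is the median difference of deposited or rescaled log2 values over the 80 abundant ribosomal protein genes, for 5 comparisons on the x axis, and each symbol is 1 of 6 scalings of the libraries. The median of hypoxia against control runs from 0.0016 to 0.24, while that of In-Cl against hypoxia is negative under all 6, from -0.13 to -0.27.

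Among the small subunit proteins, Rps19, the protein most often mutated in Diamond-Blackfan anaemia, stood highest above the control. Its deposited log2 value was 15.47 (control), 15.93 (hypoxia), 15.62 (In-Cl), 15.83 (DPN) and 15.79 (E2). All 4 hypoxic libraries were above the control, and the difference in hypoxia was 0.46 (counting interval 0.44 to 0.48). Its size depends on the scaling, from 0.108 after quantile normalization to 0.497 with median centring. The files hold 2 rows named Rps19 with nearly equal values, and the other row gave the same difference of 0.46. Rps2, which lies near the messenger RNA entry of the small subunit, was higher by 0.36 and Rps16 by 0.36. Rpsa, the laminin receptor precursor that is also a small subunit protein, was higher by 0.23.

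At the lower end of the small subunit, Rps9 was slightly below the control in hypoxia as deposited, at -0.072 (counting interval -0.093 to -0.051). The difference was -0.035 with median centring, -0.22 with the same sum and -0.33 after quantile normalization. Its deposited values were 15.12 (control), 15.04 (hypoxia), 14.94 (In-Cl), 15.01 (DPN) and 15.02 (E2), so the control was highest by a small margin. Rps27a, which is made fused to ubiquitin, was 15.23 in both the control and hypoxia, with a difference of 0.002 (counting interval -0.018 to 0.022).

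In the large subunit, Rpl10a was higher in hypoxia by 0.37 and Rpl17 by 0.37, while Rpl35a differed by 0.028 (counting interval -0.004 to 0.06), which includes 0. The acidic proteins of the ribosomal stalk, which recruits elongation factors, did not lie together. Rplp0, the stalk base, was 15.83 (control), 16.17 (hypoxia), 15.97 (In-Cl), 16.17 (DPN) and 16.11 (E2), a difference of 0.35 in hypoxia. Rplp1 was higher by 0.15 and Rplp2 by 0.031 (counting interval 0.011 to 0.051), although both form dimers on Rplp0. Rpl5 and Rpl11, which bind the p53 regulator Mdm2 when outside the ribosome, were higher by 0.29 and 0.22 and were named for that role, not by their values.

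The paralogs Rpl22l1 and Rps27l stood on the other side of the control. Rpl22l1, the paralog of Rpl22 that can take its place in the large subunit, was 11.00 (control), 10.44 (hypoxia), 10.12 (In-Cl), 10.43 (DPN) and 10.38 (E2). It was highest in the control and lower in each of the 4 hypoxic libraries, and its difference in hypoxia was -0.56 (counting interval -0.66 to -0.46). Rpl22 itself was 12.83 (control), 12.95 (hypoxia), 12.71 (In-Cl), 12.98 (DPN) and 12.95 (E2). Its hypoxia value was 0.11 above the control (counting interval 0.069 to 0.16).

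Rps27l, the paralog of Rps27 and a known target of p53, was likewise highest in the control. It was 12.14 (control), 11.78 (hypoxia), 11.55 (In-Cl), 11.79 (DPN) and 11.69 (E2). The difference in hypoxia was -0.36 (counting interval -0.43 to -0.30). Rps27, a zinc finger protein of the small subunit also called metallopanstimulin, was 13.81 (control), 14.13 (hypoxia), 13.83 (In-Cl), 14.09 (DPN) and 14.02 (E2). Its hypoxia value was 0.32 above the control.

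The ratio of a paralog to its main gene is taken within a library, so no scaling of whole libraries by a factor changes it. Rpl22l1 supplied 21.9% of the reads of its pair in control cells (counting interval 21.1 to 22.7) and, under hypoxia, 15.0% alone (14.2 to 15.7), 14.2% after In-Cl, 14.5% after DPN and 14.3% after E2. The control lay above all 4 hypoxic libraries with no overlap of the intervals, and those of the hypoxic libraries overlapped each other. The ratio in hypoxia was 1.59-fold below that of the control. Rps27l supplied 23.9% of its pair in control cells (23.3 to 24.5) and, under hypoxia, 16.4% alone (15.9 to 16.9), 17.1% after In-Cl, 16.9% after DPN and 16.6% after E2, and the ratio was 1.60-fold lower in hypoxia. These shares are of reads, not corrected for transcript length, so they are compared between libraries and not between pairs.

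Rpl36al, the autosomal paralog of the X-linked Rpl36a, also had its highest share in the control, with a smaller gap. Its share was 17.4% in control cells (16.78 to 17.99) and, under hypoxia, 15.3% alone (14.76 to 15.91), 14.5% after In-Cl, 14.6% after DPN and 15.3% after E2. Here Rpl36al was 0.11 above the control in hypoxia and Rpl36a 0.32 above it. Reads that fit both genes of a pair may have been split or dropped by the authors' counting, and its rule is not given in the sources used here.

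**Figure D3:**
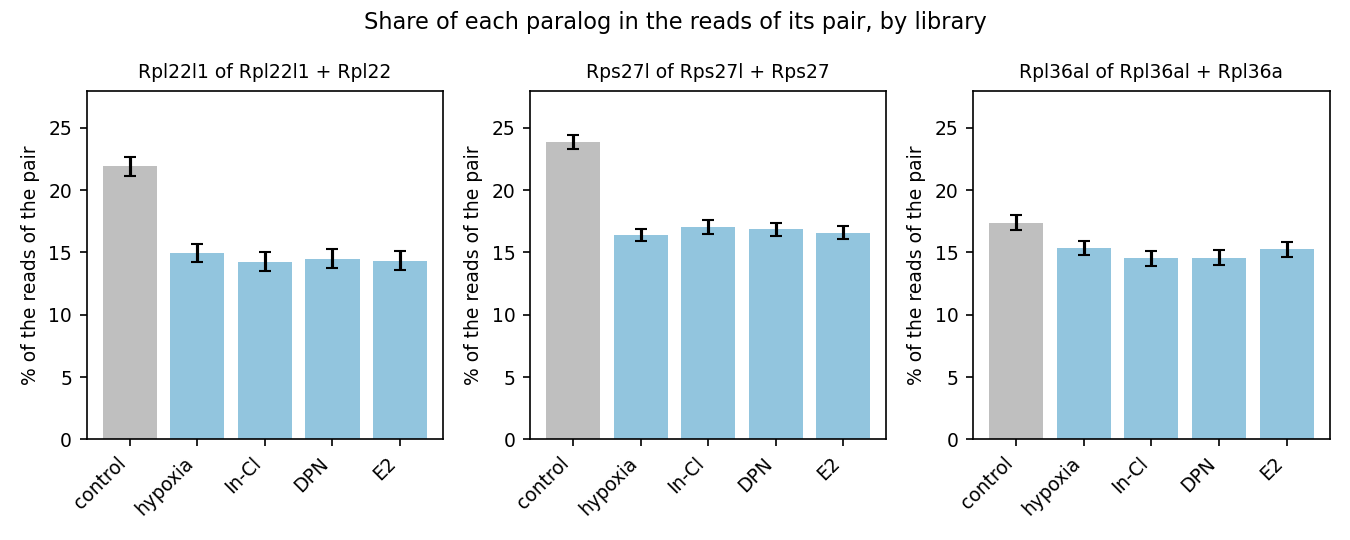
Bars are the percent of the reads of a pair that belong to the paralog, for Rpl22l1, Rps27l and Rpl36al, in the control (grey) and in the 4 hypoxic libraries (blue). Error bars are exact 95% intervals for counting error. In all 3 pairs the control bar is the highest, at 21.9%, 23.9% and 17.4%.

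The other 3 paralogs were at or near the detection limit. Rpl39l, which replaces Rpl39 in male germ cells, had 3 reads in the control and 0 in each of the 4 hypoxic libraries, where the exact upper limit of its share of the pair ran from 0.0265% in hypoxia to 0.0312% with E2, and a floor of 3 reads is 0.0215% and 0.0254%. Rpl3l, the form of Rpl3 found in striated muscle, had between 1 and 4 reads. Rps4y2, a paralog of the X-linked Rps4x, had 6 reads (control), 9 (hypoxia), 16 (In-Cl), 4 (DPN) and 13 (E2). Their main genes Rpl39, Rpl3 and Rps4x were higher in hypoxia by 0.091, 0.29 and 0.22. Rpl7l1, Rpl10l and Rpl26l1 were looked for, but no row under these symbols had a value above 0 in any library. This does not tell an absent row from a row at 0.

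To see which members left the common pattern, each was set against the median member of its library. The SD over the 5 libraries was 0.044 for the median member. It was 0.36 for Rpl22l1 and 0.26 for Rps27l, and then 0.13 for Rps9, 0.10 for Rpl27a, 0.0985 for Rplp2 and 0.0905 for Rps27a. For Rpl22l1, Rps27l, Rps9, Rplp2 and Rps27a the library that stood apart was the control, where each was high. For Rpl27a the DPN library was low as well.

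**Figure D4:**
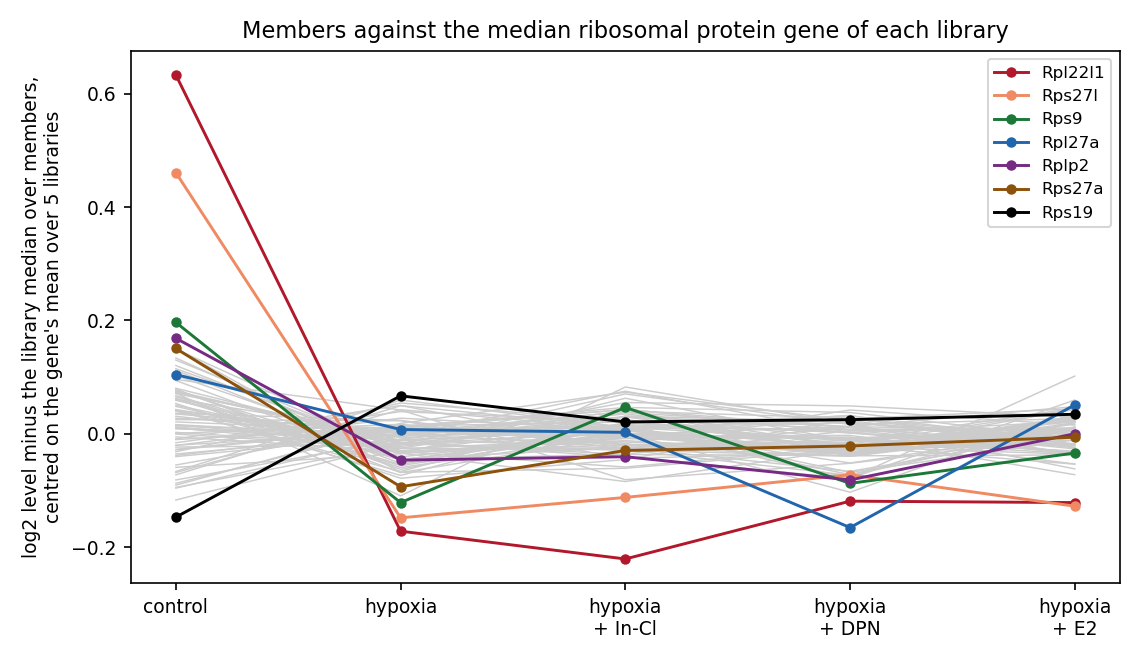
Each line is 1 of the 80 abundant members, and the y axis is its deposited log2 level minus the library's median over the members, centred on its own mean over the 5 libraries on the x axis. Grey lines are the members not named. Rpl22l1 and Rps27l stand above the rest in the control and below 0 in the 4 hypoxic libraries, Rps19 does the reverse, and Rpl27a is lowest in the DPN library.

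In-Cl against hypoxia gave the largest median difference of the 4 comparisons between hypoxic libraries. All 80 abundant members were lower with In-Cl, against 52.7% of all abundant rows, and 78 were at least 1.1-fold lower, against 26.6%. At least 1.2-fold lower were 29 members, against 9.2%. None was 1.5-fold lower (0.194% of all) or 2-fold lower (0.0%). The counting interval lay below 0 for all 80, against 29.2%. The median over all 83 was -0.25, a 1.19-fold lower level, and it was -0.25 in each subunit. All 80 also lay below 0 under the other scalings tried except quantile normalization, which put 77 below 0, 38 of them at least 1.1-fold, and gave a median of -0.13. The median of the 500 most abundant other rows was -0.075 here.

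Rps28, a small protein at the exit of the messenger RNA channel, was lowest in this comparison. Its value was 12.90 (control), 13.09 (hypoxia), 12.70 (In-Cl), 12.93 (DPN) and 12.93 (E2). The In-Cl library was the lowest of the 5, at -0.39 against hypoxia (counting interval -0.44 to -0.35). Next were Rpl24, a bridge between the subunits, at -0.35, Rps20 at -0.34, Rpl29 at -0.32 and Rpl37a at -0.32.

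The members least below hypoxia were Rpl21 at -0.078 (counting interval -0.093 to -0.063), Rps9 at -0.10, Rpl23 at -0.16, Rps6 at -0.17 and Rps18 at -0.17. Rps6 is the small subunit protein phosphorylated by the S6 kinases below mTOR. Its value was 16.34 (control), 16.47 (hypoxia), 16.31 (In-Cl), 16.50 (DPN) and 16.41 (E2). Among the stalk proteins, Rplp0 was at -0.20, Rplp1 at -0.28 and Rplp2 at -0.26. Rpsa was at -0.26.

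Other values of the same libraries are given beside these. The rows of ribosomal RNA, which remain after library preparation, took 3.92% (control), 4.56% (hypoxia), 3.65% (In-Cl), 4.67% (DPN) and 3.44% (E2) of the reads. Rn28s was at 0.42 in hypoxia against control, -0.40 with In-Cl against hypoxia and -0.51 with E2 against hypoxia. The summed smooth muscle markers were 274712 reads (control), 264267 (hypoxia), 202022 (In-Cl), 204233 (DPN) and 235969 (E2), not adjusted for library depth. In deposited log2 values, the 6 abundant markers had a median of 0.014 in hypoxia against control, where the 80 members had 0.21. The 6 ran from Smtn at -0.987 to Myl9 at 0.462, with 3 above 0 and 3 below. Against hypoxia the markers' median was -0.43 with In-Cl and -0.331 with DPN, where the members had -0.25 and -0.066. With In-Cl all 6 were below 0, from -0.568 to -0.2, while Myh11, detected but not among the 6, was at 0.017. Whether these have a part in the members' differences was not tested. Leaving ribosomal RNA out of the library total gave an In-Cl median of -0.20, with 72 members at least 1.1-fold lower. In bulk samples, fewer cells of a type and less RNA per cell cannot be told apart.

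DPN against hypoxia and E2 against hypoxia gave smaller differences. These comparisons and that of In-Cl share the hypoxia library, so their values are given side by side and not as independent evidence. With DPN the median over the 83 members was -0.065, 72 of the 80 were below 0 (49.9% of all abundant rows) and 5 were at least 1.1-fold lower, against 13.7%. That share, 6.25%, is under the background. With E2 the median was -0.09, 79 of the 80 were below 0 (49.9%) and 17 were at least 1.1-fold lower (21.3%), against 14.3%. The 17 were 4 after quantile normalization and 2 with the same sum. With the same sum in every library the number below 0 was 53 with DPN and 66 with E2. Centring on the 500 most abundant other rows left 46 with DPN. The same sum also moved the median of all abundant rows, from 0 to 0.042 with DPN and 0.048 with E2. The centring moved it to 0.0575 with DPN.

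With E2, Rpl24 was lowest at -0.19, Rpl17 was at -0.17, and only Rpl22 was above hypoxia, by 0.009 (counting interval -0.038 to 0.056). With DPN the 2 highest were Rpl21 at 0.061 and Rpl22 at 0.039, and Rps28 was at -0.16.

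Rpl27a was the lowest member with DPN. This gene encodes a protein of the large subunit. Its value was 15.27 (control), 15.42 (hypoxia), 15.15 (In-Cl), 15.18 (DPN) and 15.35 (E2). The In-Cl and DPN libraries were low and nearly level. The DPN difference was -0.24 (counting interval -0.26 to -0.22), 1.18-fold lower, and it lay between -0.17 and -0.25 under all 6 scalings. On RefSeq's gene order, Rpl27a is next to Dennd2b (in the files St5), which was at -3.31 in the DPN library against hypoxia, with Akip1 at -2.14 and Ascl3 at -7.95 beyond it. Further along on that side, Tmem9b was at -3.93, Nrip3 at -6.32 and Dennd5a at -3.315. On the other side Trim66 had 12 reads in hypoxia and 3 with DPN, and Lmo1 had 222 and 177, a difference of -0.287. Whether the neighbours' levels have a part in the value of Rpl27a was not tested.

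In-Cl and DPN were given at the same dose and time and can be compared directly, while E2 was given at another dose. All 80 members were lower with In-Cl than with DPN, against 53.3% of all abundant rows. At least 1.1-fold lower were 71, against 20.7%. The median over the 83 members was -0.19 (the large subunit -0.18, the small -0.19). It was -0.12 after quantile normalization, with 75 of the 80 below 0 and 34 at least 1.1-fold lower, and between -0.16 and -0.19 under the other scalings. Rpl22l1 differed most, at -0.31 (counting interval -0.42 to -0.19), followed by Rpl22 at -0.28 and Rps27 at -0.26. Rpl27a differed least, at -0.036, and Rps9 was at -0.07. With 1 library per compound, the spread between cultures is unknown and no interval for the difference between the compounds can be given beyond counting error.

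Fau and Gnb2l1 gave a comparison outside the symbol rule. Fau encodes a ribosomal protein fused to a ubiquitin-like protein, and Gnb2l1 encodes the scaffold Rack1 of the small subunit. In hypoxia they stood 0.32 and 0.29 above the control, and with In-Cl they were at -0.29 and -0.21 against hypoxia. Both lay within the range of the members in both comparisons.

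Other messages known to begin with a TOP tract were a list of 21 abundant genes. In hypoxia their median was 0.16, with 11 at least 1.1-fold higher and 2 lower (27.0% and 36.8% of all abundant rows), and it was 0 after quantile normalization. Vim, the intermediate filament vimentin, was highest at 0.66, then Eif3f at 0.47 and Gas5, a host of small nucleolar RNAs, at 0.43, while Cct4, a chaperonin subunit, was at -0.18. With In-Cl against hypoxia the median was -0.16, with 11 at least 1.1-fold lower (26.6% of all abundant rows), led by Vim at -0.40 and Eef1b2 at -0.29. Some genes stand in more than 1 list.

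The translation factors were mixed. The 9 abundant elongation factors had a median of -0.003 in hypoxia, with 4 at least 1.1-fold higher and 2 lower, against 27.0% and 36.8% of all abundant rows. Eef2, which moves the ribosome along the message, was at 0.41 and Eef1a1, which brings in the aminoacyl-tRNA, at 0.38, while Eif5a was at -0.35. The 38 initiation factors had a median of -0.0725, with 7 higher and 15 lower against the same shares, from Eif2b3 at -0.63 to Eif3f at 0.47.

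As deposited, genes that build ribosomes stood on the other side of the control from the ribosomal proteins. Of 41 abundant genes for nucleolar particles and small subunit assembly, 37 were at least 1.1-fold lower in hypoxia and 2 higher. The shares of all abundant rows were 36.8% lower and 27.0% higher, and the list's median was -0.37. Wbscr22, a ribosomal RNA methyltransferase, was at -0.97 and Bysl, an assembly factor, at -0.90, while Nob1, the nuclease of the last 18S cut, was at 0.27 and Dkc1, the pseudouridine synthase dyskerin, at 0.16. Of 48 large subunit assembly factors, 35 were at least 1.1-fold lower and 3 higher, against the same shares. Their median was -0.34, from Mak16 at -0.69 to Sbds at 0.22. The medians of both lists were negative under all 6 scalings, at -0.31 or below. That of the 80 ribosomal protein genes ran from 0.0016 to 0.24, so their side of the contrast depends on the scaling. Of 17 genes for ribosomal RNA synthesis, 10 were at least 1.1-fold lower and 2 higher, with a median of -0.22. Among 10 chaperones of ribosomal proteins, 6 were lower and 1 higher. For both lists the shares of all abundant rows were again 36.8% and 27.0%.

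With In-Cl against hypoxia the medians of these assembly lists were -0.061 and -0.0605. At least 1.1-fold lower were 11 of 41 and 16 of 48, against 26.6% of all abundant rows. With libraries brought to the same sum the medians were 0.0084 and 0.0089, nearer 0 than the members' -0.18. After quantile normalization they were -0.079 and -0.069, against -0.13 for the members.

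The 61 abundant mitochondrial ribosomal proteins, which build the separate ribosome of the mitochondrion, had a median of -0.21 in hypoxia, with 37 at least 1.1-fold lower and 6 higher, against 36.8% and 27.0% of all abundant rows. With In-Cl their median was -0.17, again with 37 at least 1.1-fold lower, against 26.6%. The 32 proteasome subunits had a median of -0.28 in hypoxia, with 26 lower, and the 55 respiratory chain subunits -0.11, with 24 lower, both against 36.8%. With In-Cl the respiratory chain subunits had a median of -0.23 and 42 were at least 1.1-fold lower, against 26.6%. The proteasome subunits had a median of -0.1525, with 18 lower against the same share and all 32 below 0 (52.7% of all abundant rows). After quantile normalization, the medians with In-Cl were -0.23 for the respiratory chain, -0.195 for the mitochondrial ribosomal proteins and -0.16 for the proteasome. That of the 80 cytosolic ribosomal protein genes was -0.13, nearer 0 than these.

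Among 21 regulators of mTOR and of TOP messages the median was -0.03 in hypoxia. Ddit4, the mTOR inhibitor REDD1, was at 3.20 and Mxi1, an antagonist of Myc, at 2.60. Eif4ebp1, the translation repressor 4E-BP1, was at 0.75, and Mtor itself, named for its role and not by the rule, at -0.25. The lowest were Eif4ebp2, a relative of 4E-BP1, at -0.40 and Rps6kb2, an S6 kinase, at -0.33.

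**Figure D5:**
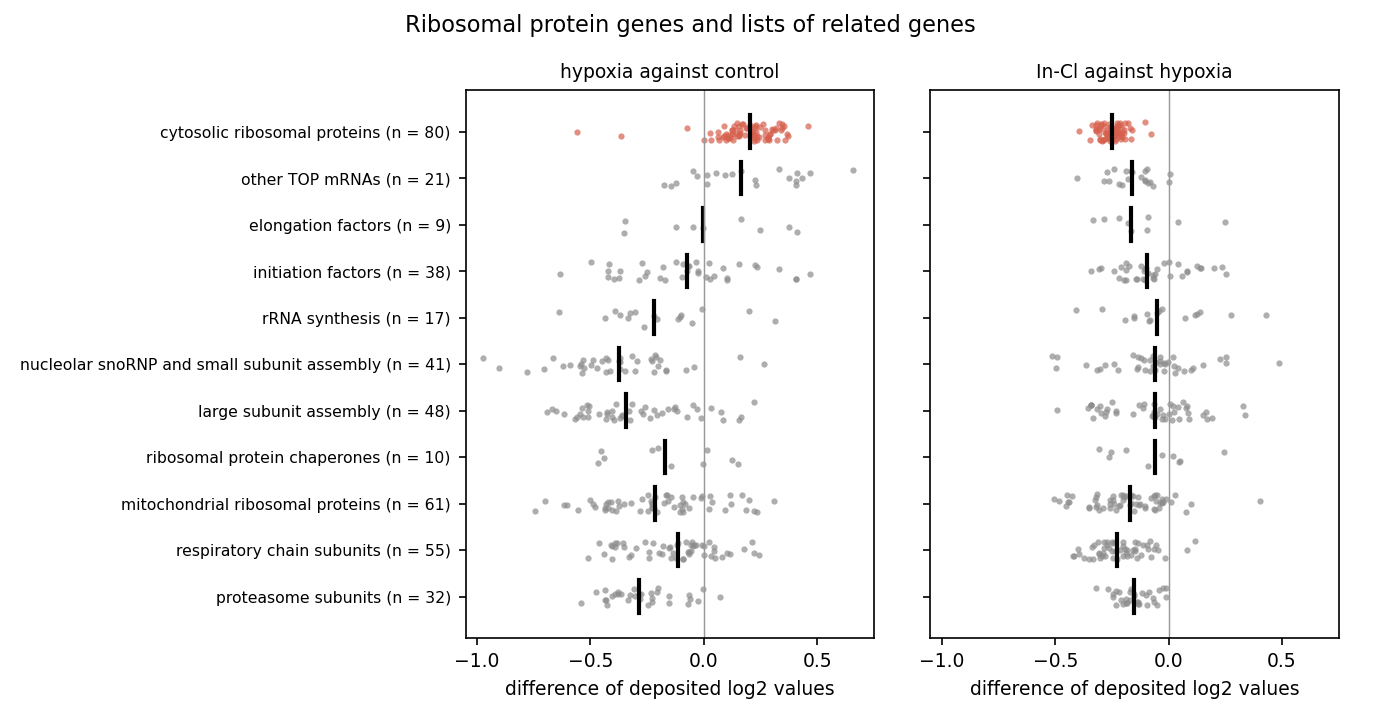
Points are abundant genes of the ribosomal protein set (red) and of 10 related lists (grey), by their difference of deposited log2 values on the x axis in hypoxia against control (left) and In-Cl against hypoxia (right), and black bars are medians. In hypoxia the ribosomal proteins lie to the right at 0.21 and the assembly lists to the left at -0.37 and -0.34, while with In-Cl the ribosomal proteins lie at -0.25 and the assembly lists near 0.

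Some members had several rows, which come from the same libraries and may share reads, so their direction is no independent check. For 14 symbols there were 20 further rows. These went in the direction of the row used in 19 of 20 for hypoxia against control and in 20 of 20 for In-Cl against hypoxia. The 2 minor rows of Rpl38, which together hold few of its reads and are named after their values were seen, were at 0.74 and 0.70 in hypoxia, against 0.16 for the row used. Ribosomal protein genes have many processed copies in the genome, so reads may be shared between copies, and the values of single genes are uncertain to that extent.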

How the data were processed

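Total RNA (Trizol) went into stranded SMARTer libraries, per the labels' protocols. The submitters' processing notes list TopHat, edgeR and rn6. The counting program, its annotation, its strand setting and the tool versions were not given in the sources used here. As deposited by the authors, 1 table per library holds log2 values, which equal log2 of an adjusted count plus 1. Low linear values come in equal steps: 87.5% of them in the control, 99.1% with E2 and 100% in the other 3 libraries lay within 0.2 read of whole steps. A step is worth 0.848 in the control and 0.986 to 1.10 elsewhere, and dividing by it gave approximate reads. Because 87.5% is not nearly all, no count test was run. Counting intervals that involve the control rest on these less well fitting reads and are approximate.

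Differences of deposited log2 values were taken in 5 comparisons, with counts over the upper 50% of detected rows by mean linear value (at least 310.5) at 1.1-fold. The members and lists were chosen with earlier results of these data known. Named were paralog pairs, stalk proteins, Rpsa, Rpl27a, the 5 highest and 5 lowest members per comparison, the 6 most variable members and the 2 highest and lowest genes of each list, all with a mean of at least 100, from which a selection is printed. Genes outside the rule are marked where they appear. The part of the rule on levels per coding kilobase could not be applied, since coding lengths were not used here. Python 3.11.15, pandas 2.3.3, numpy 2.4.6 and scipy 1.17.1 were used, and the code was tested on simulated data.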

Additional observations from a re-analysis of the deposited data

How the results depend on the processing

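No paired analysis was possible because each condition is 1 library, and for the same reason no library could be left out in turn. Some scalings were chosen after seeing the data, namely centring on the 500 most abundant other rows, the same sum without ribosomal RNA rows, shares without those rows, and use of symbols with 1 row. In hypoxia against control, the median of 0.20 was 0.24 with median centring, 0 after quantile normalization, 0.059 with the same sum, 0.067 centred on the 500 rows and 0.068 with the same sum without ribosomal RNA, and members at least 1.1-fold higher were 9, 20, 20 and 20 under the last 4. The large minus small subunit median of -0.026 was reversed to 0.0023 after quantile normalization. In the order quantile normalization, same sum, 500 rows and sum without ribosomal RNA, the median was -0.13, -0.18, -0.18 and -0.20 for In-Cl, -0.01, -0.023, -0.0075 and -0.022 for DPN, and -0.034, -0.042, -0.064 and -0.059 for E2. Members at least 1.1-fold lower with In-Cl were 38 after quantile normalization, and by fold 29 at 1.2-fold, 0 at 1.5-fold and 0 at 2-fold. With DPN they were 1 under each of the 4, and with E2 4, 2, 8 and 5. For In-Cl against DPN the median was -0.12 after quantile normalization, with 34 members, and -0.16 with the same sum. The members' share in the control, hypoxia, In-Cl, DPN and E2 libraries was 10.9%, 10.7%, 9.92%, 10.6% and 10.4% after quantile normalization, 10.9%, 11.5%, 10.2%, 11.3% and 11.1% with the rows of a symbol summed, and 10.9%, 11.5%, 10.1%, 11.3% and 10.9% without ribosomal RNA. The cause of these shifts was not tested. Rpl22l1 and Rps27l kept their negative sign in hypoxia against control under all 6 scalings, from -0.52 to -0.70 and from -0.33 to -0.51. Under all alternatives together, 86 of the summary values stayed within a tolerance, 51 did not and 1 was reversed. For medians and subunit differences the tolerance was the median counting error of a single member, not that of the summary value. For shares it was the counting error of the share, and for counts a factor of 1.5. Depth limits only Rpl39l, Rpl3l and Rps4y2, with 16 reads or fewer.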

Other observations

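Rps27l was set beside 3 other known targets of p53, chosen after its values were seen. Cdkn1a, the cell cycle inhibitor p21, was 12.49 (control), 11.53 (hypoxia), 11.41 (In-Cl), 11.48 (DPN) and 11.45 (E2). Its difference in hypoxia was -0.95, and the control was the highest of the 5 libraries. Ccng1, cyclin G1, was 13.51 (control), 12.92 (hypoxia), 12.92 (In-Cl), 13.14 (DPN) and 13.02 (E2), a difference of -0.59 in hypoxia, and again the control was highest. Mdm2, the ubiquitin ligase of p53, was 11.26 in the control and 11.16 in hypoxia, a difference of -0.096, and was 11.38 with E2, the highest of the 5.

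The row of Rn5-8s with the highest mean was 13.65 (control), 13.74 (hypoxia), 13.36 (In-Cl), 13.48 (DPN) and 8.27 (E2). The E2 library was far below the other 4, with a difference of -5.48 from hypoxia, while Rn18s was at -0.49 in that comparison. The other 3 rows of Rn5-8s, all far less abundant, were at -0.74, -0.69 and -0.74.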
